A study of Mus musculus with 3 samples.

Results

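The alpha and beta tubulin isotypes are the products of separate genes that build the same protein dimer. The members were taken by gene symbol as 10 of the 46603 Ensembl genes in the count files. They were the 4 alpha tubulin genes Tuba1a, Tuba1b, Tuba1c and Tuba4a and the 6 beta tubulin genes Tubb2a, Tubb2b, Tubb3, Tubb4b, Tubb5 and Tubb6. All 10 were found, and each had more than 3 counts in every library. The remaining 6 of the 16 annotated alpha and beta tubulin genes (Tuba3a, Tuba3b, Tuba8, Tubal3, Tubb1 and Tubb4a) entered the family totals. The data were RNA-Seq of polyadenylated RNA from KO-actin cells. These are fibroblasts from mouse embryos (MEFs) that lack endogenous β-actin and express β-actin with a nuclear localization signal (NLS). There was 1 condition with 3 libraries, numbered as replicates 1 to 3, and KO and wild-type libraries were not analysed here. All 3 libraries thus share the knockout and the NLS-tagged transgene, and no value below is a change caused by either. The sources used here do not give the promoter of the transgene, the number of clones or the age of the cultures. They also do not say whether the libraries came from separate cultures, so the spread between them may be technical.

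The libraries held between 44383636 and 49932446 counts. Replicate 2 stood apart from the others in this series. Of 13814 genes with enough counts to test, 6063 varied beyond counting error among the 3 libraries. Leaving out any library lowered this number, to 1748 without replicate 2, 4622 without replicate 1 and 4786 without replicate 3. The shares of Tubb5, Tuba1b and Tubb3, the beta to alpha ratio and the calls of variation are therefore also given without replicate 2. A list of 11 fibroblast marker genes was read, and 11 of 11 were above 3 counts in every library, against 32.6% of all genes. This bar is low and does not tell cell types apart, since 7 of 9 neuronal markers also passed it. Of the 11, 9 had a mean of at least 1 CPM, against 26.0% of all genes. All genes include noncoding genes and pseudogenes, so both shares are a low background for coding genes. The summed level of the 11 markers ran from 14042 to 14954 CPM (counts scaled to a common library total). Vim, Col1a1 and Fn1 led this list in CPM, and Vim, Col1a1 and Sparc led it per kilobase of mRNA. Thy1, at 0.837 CPM, and Dcn, at 0.152 CPM, were the lowest on both scales.

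Microtubules are hollow polymers of a dimer of 1 alpha and 1 beta tubulin. Isotypes of a family are nearly the same in their folded core and differ most in a short acidic tail at the C-terminus. This tail lies on the outside of the microtubule, where motors, severing enzymes and tail-modifying enzymes act on it. Most alpha tubulins are made with a final tyrosine, which can be removed and added back. Cells also hold their tubulin mRNAs in check through the first residues of the nascent chain, a process called autoregulation. Tubb3 is widely used as a marker of neurons, Tubb1 belongs to platelets and megakaryocytes, and Tubb4a is mainly a brain isotype.

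The ends of the coding sequences of Tuba4a and 5 beta members are shown because the tails they encode are where isotypes of a family differ most. Each is the last 20 codons before the stop codon of the representative coding mRNA, taken from the GENCODE release M21 transcripts on GRCm38. Codons for glutamate and aspartate are in capitals.
Tuba4a: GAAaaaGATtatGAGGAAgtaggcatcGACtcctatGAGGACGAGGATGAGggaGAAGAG
Tubb5: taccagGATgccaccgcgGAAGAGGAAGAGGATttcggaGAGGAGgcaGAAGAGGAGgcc
Tubb4b: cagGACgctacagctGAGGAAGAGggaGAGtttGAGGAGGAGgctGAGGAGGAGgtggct
Tubb2a: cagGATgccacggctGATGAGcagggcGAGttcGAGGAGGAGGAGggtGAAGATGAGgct
Tubb2b: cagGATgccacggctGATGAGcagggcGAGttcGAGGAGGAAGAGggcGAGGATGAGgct
Tubb3: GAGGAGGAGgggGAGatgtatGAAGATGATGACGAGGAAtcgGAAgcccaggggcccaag

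Tuba4a had 12 acidic codons of 20 and no final tyrosine codon. The 6 beta members had 11 acidic codons each. The tails of Tubb2a and Tubb2b differed in 3 codons and at 0 residues, so these isotypes have the same tail, and over the whole protein they differed at 2 residues. Tubb3 and Tubb6 were the beta members least like the rest. The protein identity of Tubb3 with Tubb2a, Tubb2b, Tubb4b and Tubb5 ran from 90.7% to 91.6% and that of Tubb6 from 90.2% to 91.1%, while the identity of Tubb3 with Tubb6 was 92.0%. The 4 alpha members encode the start Met-Arg-Glu-Cys, and the 6 beta members encode Met-Arg-Glu-Ile, which are the starts that autoregulation reads.

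All positions are on GRCm38. Tuba1b (chromosome 15, 98931425 to 98934565, minus strand), Tuba1a (98949837 to 98953703, minus strand) and Tuba1c (99029891 to 99038110, plus strand) lie next to each other in a cluster. Tuba4a lies on chromosome 1 from 75214228 to 75219865 on the minus strand. Tubb2a (34074274 to 34078007) and Tubb2b (34126748 to 34130466) are neighbours on the minus strand of chromosome 13. Tubb3 lies on chromosome 8 from 123411424 to 123422015 on the plus strand. Tubb4b lies on chromosome 2 from 25222160 to 25224702 and Tubb5 on chromosome 17 from 35833921 to 35838306, both on the minus strand. Each representative mRNA of a member had 4 exons.

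Together the 10 genes took 0.479% ± 0.00810 (SD, n = 3) of all counts. Tubb5, the beta isotype common to most dividing cells, was the highest tubulin gene. Replicates 1 to 3 gave 2250, 2308 and 2218 CPM for it, and it ranked 15 among all genes by mean CPM. Tuba1b, the leading alpha gene, had 991, 932 and 941 CPM and ranked 73. Replicate 1 was the high library for Tuba1b, whereas replicate 2 was the high one for Tubb5. Tuba1a, the alpha isotype abundant in developing neurons, had 419, 410 and 406 CPM. Tuba1c had 303, 299 and 289 CPM. For these 3 neighbouring alpha genes the ranges over the libraries did not overlap.

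Tubb4b, a widely expressed beta isotype that is also used in cilia, had 322, 326 and 315 CPM. Tubb6, a beta isotype of many non-neuronal cells, had 300.2, 322 and 291 CPM. These ranges overlapped, since Tubb6 in replicate 2 was above Tubb4b in replicate 3. Tuba4a had 93.3, 96.0 and 92.7 CPM, and Tubb2a had 76.1, 78.6 and 75.7 CPM. Tubb2b, the close copy of Tubb2a, had 59.6, 67.1 and 59.7 CPM. The Tubb2b range stayed below that of Tubb2a in every library. Tubb3 was the lowest member, with 508, 597 and 472 counts, which is 10.2, 12.0 and 10.6 CPM.

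Levels of different genes were compared per kilobase (kb) of mRNA, since a longer mRNA gives more reads. On this scale Tuba1b had 548 ± 18.2 CPM per kb (SD, n = 3), Tuba1a 228 ± 3.74, Tuba1c 150 ± 3.67 and Tuba4a 33.1 ± 0.615. The beta genes followed the order Tubb5 with 853 ± 17.2 CPM per kb, Tubb4b with 201 ± 3.47, Tubb6 with 173 ± 8.96, Tubb2a with 47.7 ± 1.0, Tubb2b with 28.5 ± 1.96 and Tubb3 with 5.86 ± 0.520. Tubb4a, which is no member, came next at 1.39 ± 0.0771 CPM per kb. Each of the 9 pairs of neighbours in these orders kept its order in 3 of 3 libraries. The orders were taken from the mean of these same libraries, so the comparisons of neighbours describe them and are no independent test. The closest pair on this scale was Tubb4b and Tubb6, at 1.16-fold, with a mean log2 ratio of 0.21 ± 0.05 (SD, n = 3). This depended on how sequence that Tubb4b shares with other genes was treated. Each whole count was also divided by the gene's number of unshared 50-base stretches, which applies only if reads matching several genes were left out. Per unshared stretch Tubb4b exceeded Tubb6 2.62-fold, and the closest beta pairs were Tubb6 over Tubb2a at 1.82-fold and Tubb5 over Tubb4b at 1.87-fold. An exact two-sided sign-flip permutation test of the within-library ratio gave p = 0.25 for each pair, also after Benjamini-Hochberg adjustment over the 9 pairs. That is the smallest p that 3 libraries allow, so this design cannot pass 0.05. Each mean log2 ratio was larger than its own spread between libraries.

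**Figure D1:**
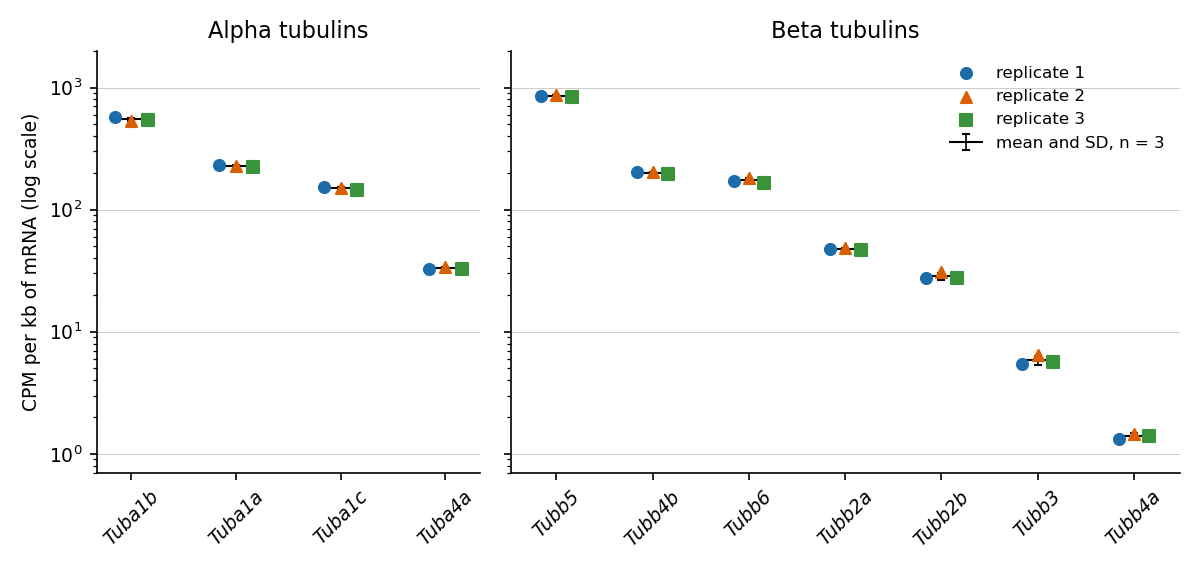
CPM per kb of mRNA (log axis) of the tubulin genes above 3 counts in every library, with 1 marker per library and the mean with its SD (n = 3). Tubb5 and Tuba1b lead their families, and Tubb3 and Tubb4a sit at the bottom of the beta tubulins.

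Among the alpha tubulins, Tuba1b held 57.1% ± 0.587 of the per-kb level, Tuba1a 23.8% ± 0.235, Tuba1c 15.6% ± 0.271 and Tuba4a 3.45% ± 0.120 (SD, n = 3 for each). Of the alpha genes outside the members, Tuba8 had 0, 4 and 1 counts. Tuba3a and Tuba3b, which are testis isotypes, and Tubal3 had 0 counts in each library. In the smallest library, 0 counts are compatible with a level of at most 0.0676 CPM by counting error alone. Of 4 germ cell markers 1 was above 3 counts in every library, and none reached a mean of 1 CPM.

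Among the beta tubulins, Tubb5 held 65.1% ± 0.309, Tubb4b 15.3% ± 0.165, Tubb6 13.2% ± 0.352, Tubb2a 3.64% ± 0.0231 and Tubb2b 2.17% ± 0.0990 of the per-kb level (SD, n = 3 for each). Tubb3 held 0.447% ± 0.0306 and Tubb4a 0.106% ± 0.00474. In plain CPM the share of Tubb5 was 74.4% ± 0.286, and that of Tubb3 was 0.360% ± 0.0249. The mRNA of Tubb5, with 2649 bases, is the longest of the 6 beta members. Without replicate 2 the per-kb shares were 65.3% for Tubb5, 57.4% for Tuba1b and 0.431% for Tubb3.

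**Figure D2:**
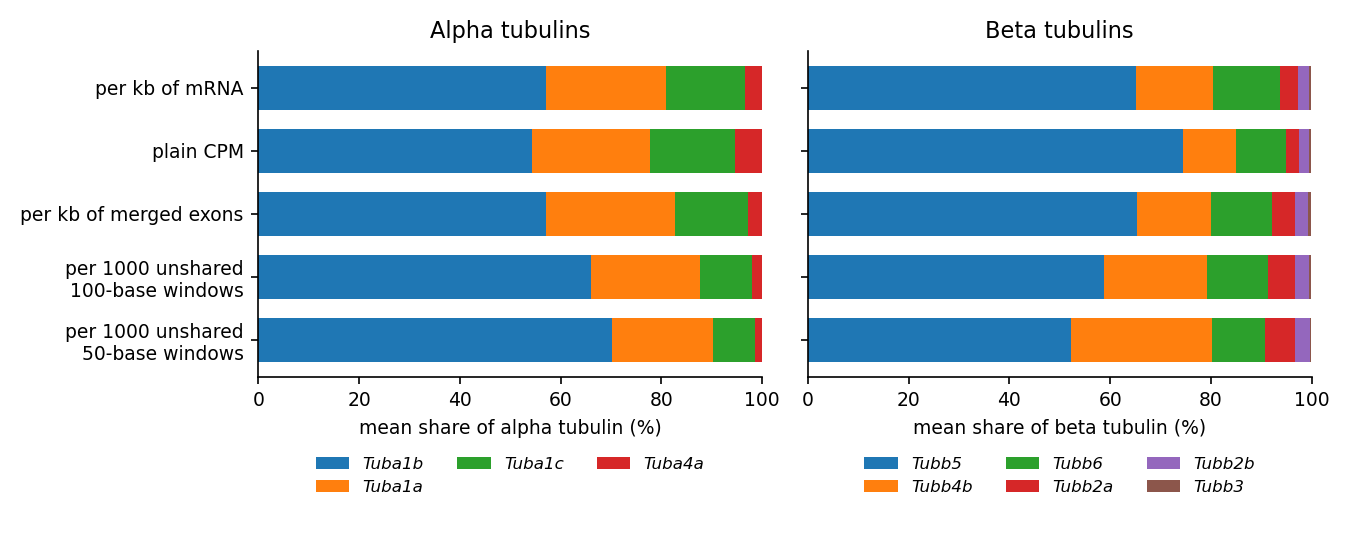
Mean share (%) of each member among the alpha (left) and beta (right) tubulins over 3 libraries, as stacked bars for 5 ways of treating length. Tuba1b and Tubb5 are the widest segment in each bar, but the share of Tubb5 runs from 52.2% to 74.4% and that of Tuba1b from 54.3% to 70.1%.

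Tubb3 was sixth of 8 beta tubulin genes, above Tubb4a and Tubb1. Its share of beta tubulin counts was 0.337% in replicate 1 (95% exact binomial interval 0.308% to 0.367%), 0.386% in replicate 2 (0.356% to 0.418%) and 0.358% in replicate 3 (0.326% to 0.391%). The intervals cover counting error only. Those of the 3 libraries overlap, which is no test of a difference between them. Measured against library sizes, Tubb3 did vary beyond counting error (adjusted p = 0.0239 by the chi-square test described below). Tubb2b, the next higher gene, exceeded Tubb3 4.86-fold per kb, or 7.98-fold per unshared 50-base stretch, and Tubb5 exceeded it 146-fold ± 10.4 (SD, n = 3). Tubb3 in turn exceeded Tubb4a 4.21-fold. Tubb1 had 0 counts in each library, and of the 4 platelet and megakaryocyte markers 2 were above 3 counts in every library. These were Itga2b, an integrin subunit, with 281, 350 and 275 counts and Gp1ba with 37, 28 and 25, while Gp9 had 0 and Pf4 at most 1 count. Tubb3 ranked 7787 of 21523 genes per kb of coding mRNA, against 30 for Tubb5.

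Tubb3 is used as a neuronal marker, so a list of 9 other neuronal genes was read beside it. Of these, 7 were above 3 counts in every library and 3 had a mean of at least 1 CPM, with a summed level between 45.4 and 48.0 CPM. Map2 made up most of this sum, at 40.9 ± 0.702 CPM (SD, n = 3), while the synaptic genes Syt1 and Snap25 had 2.70 and 1.89 CPM. Rbfox3, a nuclear protein of mature neurons, had 14, 16 and 14 counts, and Dcx, which binds microtubules in migrating neurons, had 1, 0 and 0. Whether RNA of other cells contributed to the Tubb3 level was not tested, and in bulk RNA fewer cells of a type and less RNA per cell cannot be told apart.

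How much of each tubulin mRNA could be assigned to 1 gene differed between the families. Every stretch of 50 bases (a window) of each mRNA was looked up in the transcripts of all other genes on both strands. In Tuba1b 83.1% of these windows also occurred in another gene, in Tuba1a 75.5% and in Tuba1c 61.0%. With windows of 100 bases these shares were 73.0%, 65.8% and 53.4%. Tubb4b had 55.5%, Tubb2a 49.6% and Tubb2b 39.3% of 50-base windows shared. Tubb5 had 0.115%, and Tubb3 and Tubb6 had 0%. The read length and the treatment of reads that match several genes are not given in the sources used here. The levels of the Tuba1 genes, Tubb2a, Tubb2b and Tubb4b are therefore uncertain in a way that those of Tubb5, Tubb6 and Tubb3 are not.

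**Figure D3:**
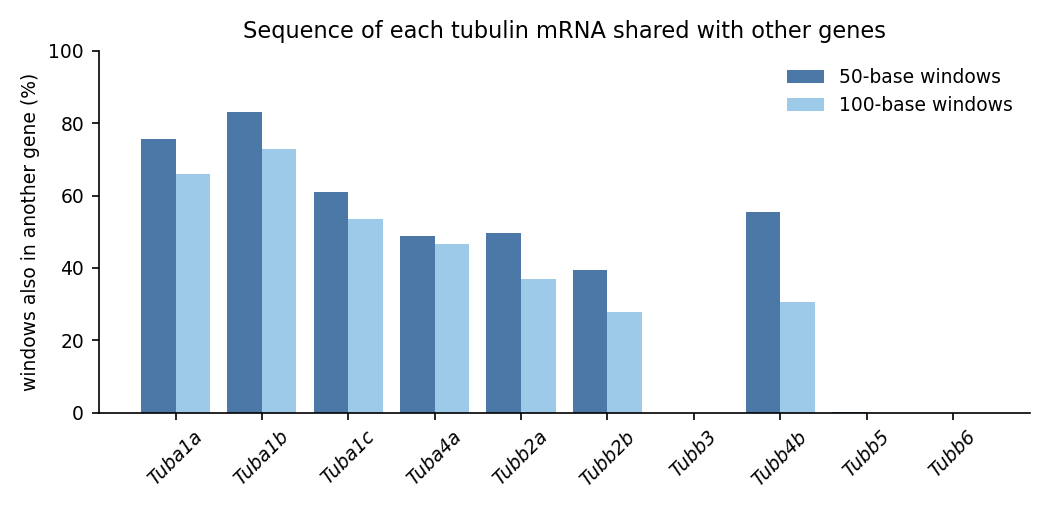
Share (%) of 50-base and 100-base windows of each member's mRNA that also occur in a transcript of another gene. The bars of Tuba1a, Tuba1b and Tuba1c are the tallest, and those of Tubb3, Tubb5 and Tubb6 are at or near 0.

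Much of the shared sequence lies in other members. Of 50-base windows, Tuba1b shared 59.3% with Tuba1c, Tuba1c 52.0% with Tuba1b, and Tuba1a 46.9% with Tuba1c. Tubb2a shared 45.6% with Tubb2b. Much of the shared alpha sequence also lies in processed pseudogenes, which are copies of an mRNA put back into the genome. The files held counts for 6 pseudogenes that share at least 10% of the windows of an alpha gene, and these summed to 120 ± 5.47 CPM (SD, n = 3). Gm17383 led them with 3254, 3064 and 3133 counts, followed by Gm14150 with 2086, 1999 and 1847 counts. Where the sequence is the same, reads of these pseudogenes cannot be told from reads of the Tuba1 genes. The same holds for reads of different Tuba1 genes. The 2 beta pseudogenes, Tubb4b-ps1 and Tubb4b-ps2, summed to 1.2 CPM. Tuba4a is uncertain for another reason: 48.6% of its mRNA is overlapped by exons of Stk16 on the opposite strand, and whether counting used strand is not given in the sources used here. Stk16 itself had 67.3 ± 2.51 CPM (SD, n = 3). In Tubb4b 7.57% of the mRNA is overlapped by Fam166a, which had 0, 1 and 0 counts.

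The summed beta tubulins exceeded the summed alpha tubulins in each library, with ratios of 1.32, 1.42 and 1.36 per kb and a mean of 1.37 ± 0.0509 (SD, n = 3). Without replicate 2 the mean ratio was 1.34. The alpha sum was 959 ± 24.0 CPM per kb and the beta sum 1310 ± 32.7. This ratio depended on the treatment of shared sequence. Dividing each gene's counts by its unshared 50-base windows, the scale that would apply had reads matching several genes been left out, turned it to 0.351. With unshared 100-base windows it was 0.462. The data thus do not settle which family had more mRNA. The order of the members within each family was the same on these scales and in plain CPM.

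The highest library exceeded the lowest by 1.04-fold for Tuba1a to 1.19-fold for Tubb3, with a median of 1.06-fold over the 10 members and 1.11-fold over all genes tested. The median was 1.08-fold over genes of 10 CPM or more on average, a class that holds all 10 members. Of the 10 members, 8 varied beyond counting error (chi-square against library sizes scaled by the TMM method of edgeR, Benjamini-Hochberg adjusted p under 0.05), against a background of 43.9% of 13814 genes. Among genes of 10 CPM or more on average the background was 55.4%. High counts make small differences detectable, and the count of 8 does not speak to their size. The calls were Tuba1a, Tuba1b, Tuba1c, Tubb2b, Tubb3, Tubb4b, Tubb5 and Tubb6. Tuba4a (adjusted p = 0.121 by the chi-square test) and Tubb2a (adjusted p = 0.127) did not pass. The adjusted p was lowest for Tubb5, at 1.94e-31, although its highest library was 1.05-fold above its lowest. For Tubb3 the adjusted p was 0.0239.

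The library with the highest value was not the same for each member. Replicate 2 was the highest library for Tuba4a and all 6 beta members, and replicate 1 for Tuba1a, Tuba1b and Tuba1c, while replicate 3 was highest for none. This difference between members was not tested. Over all genes tested, replicate 2 was highest in 39.7%, replicate 1 in 31.4% and replicate 3 in 28.9%. The log2 deviation of replicate 2 from the mean of the other libraries was 0.22 for Tubb3, 0.18 for Tubb2b and 0.14 for Tubb6. It was 0.06 for Tubb5, 0.05 for Tubb4b and -0.04 for Tuba1b. The median was 0.06 over the members and 0.0026 over all genes tested. The GC content of the member mRNAs ran from 51.2% in Tubb2b to 57.9% in Tubb3, with a median of 55.0% against 50.6% for the genes tested, and its part in the deviations was not tested. Without replicate 2, 5 members passed the test (Tuba1a, Tuba1b, Tuba1c, Tubb5 and Tubb6), against 12.5% of 14037 genes. Without replicate 3 also 5 passed (Tuba1b, Tubb2b, Tubb3, Tubb5 and Tubb6), against 34.0% of 14082 genes. Without replicate 1, 8 passed, now with Tuba4a and Tubb2a and without Tuba1b and Tubb3, against 33.1% of 13957 genes.

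**Figure D4:**
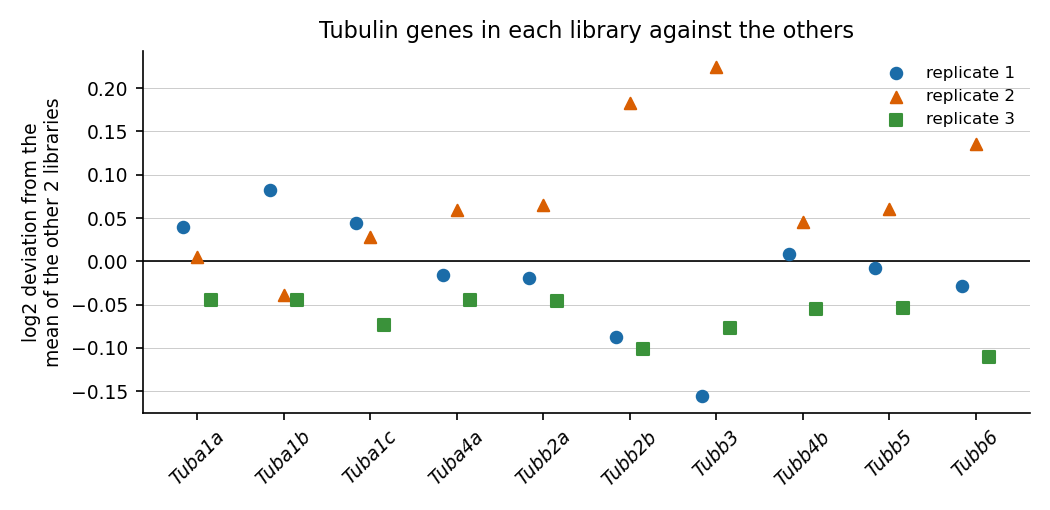
Log2 deviation of 1 library from the mean of the other 2, shown in turn for the 10 members, after TMM scaling. Replicate 2 is the highest library for each beta member and Tuba4a, with Tubb3 at 0.22, and replicate 3 lies below 0 for each member.

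Genes that act on tubulin were read from lists of 73 genes outside the alpha and beta families. Of these, 64 had a mean of at least 1 CPM and 68 were above 3 counts in every library, against 26.0% and 32.6% of all genes in the files. All genes include noncoding genes and pseudogenes, whereas the listed genes are coding. Of 21523 genes with a coding mRNA, 12078 had at least 10 counts in every library. Levels between genes are again per kb of mRNA. Tubg1, the gamma tubulin that nucleates microtubules, had 69.1 ± 4.18 CPM per kb (SD, n = 3), far above its copy Tubg2 at 1.47 ± 0.0924. The centriolar tubulins Tubd1 and Tube1 had 4.98 and 3.67 CPM per kb. All 8 genes of the gamma-tubulin ring complex, the template for new microtubules, were above 1 CPM, from 7.18 CPM per kb for Tubgcp5 to 24.8 for Tubgcp3.

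The list of folding cofactors and their regulators had 7 genes, all above 1 CPM. It holds the cofactors that assemble the dimer, the GTPase Arl2 that regulates them, and Tbcel, which destabilises tubulin. Tbca, which holds free beta tubulin, led them with 201 ± 6.03 CPM per kb (SD, n = 3), and Tbcel was the lowest at 7.54 CPM per kb. Of the autoregulation genes, Ttc5, which recognises the start of nascent tubulin, had 10.5 CPM per kb and its partner Scaper had 3.03. Stmn1, a stathmin that sequesters dimers, reached 270 ± 13.7 CPM per kb. The neuronal stathmins Stmn2, Stmn3 and Stmn4 stayed under 1 CPM, with at most 35 counts in a library.

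Of 21 genes that modify tubulin, 17 had a mean of at least 1 CPM and 18 were above 3 counts in every library. Both sides of the tyrosine cycle were present. Ttl, which adds the final tyrosine, had 11.3 ± 0.141 CPM per kb, and Vash2, which removes it with the help of Svbp, had 17.0 ± 0.524. Vash1, which can also remove it, had 0.978 CPM per kb. Ttll12, at 56.0 CPM per kb, was the highest of the list. The genes not above 3 counts in every library were Ttll9 with 5, 6 and 0 counts, Agbl2 with 0, 1 and 0, and Agbl4 with 6, 1 and 7. Atat1, which acetylates a lysine inside the alpha tubulin lumen, had 8.35 CPM per kb, and the deacetylases Hdac6 and Sirt2 had 22.4 and 42.1. The 4 alpha members all encode that lysine.

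Of 22 microtubule-associated protein genes 20 had a mean of at least 1 CPM. Map7d1 was the highest at 97.9 ± 7.85 CPM per kb, followed by Map4, the main such protein outside neurons, at 68.8 ± 1.24. Dcx and Map7 were at or under 3 counts in every library. Mapt, which encodes tau, had 58, 52 and 65 counts. All 5 severing enzyme genes had a mean above 1 CPM, and Fign was the lowest of them at 0.118 CPM per kb of mRNA. Of 5 markers of multiciliated cells, in which Tubb4b is used for axonemes, 2 were above 3 counts in every library and none reached a mean of 1 CPM, with Tekt1 at 0.

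**Figure D5:**
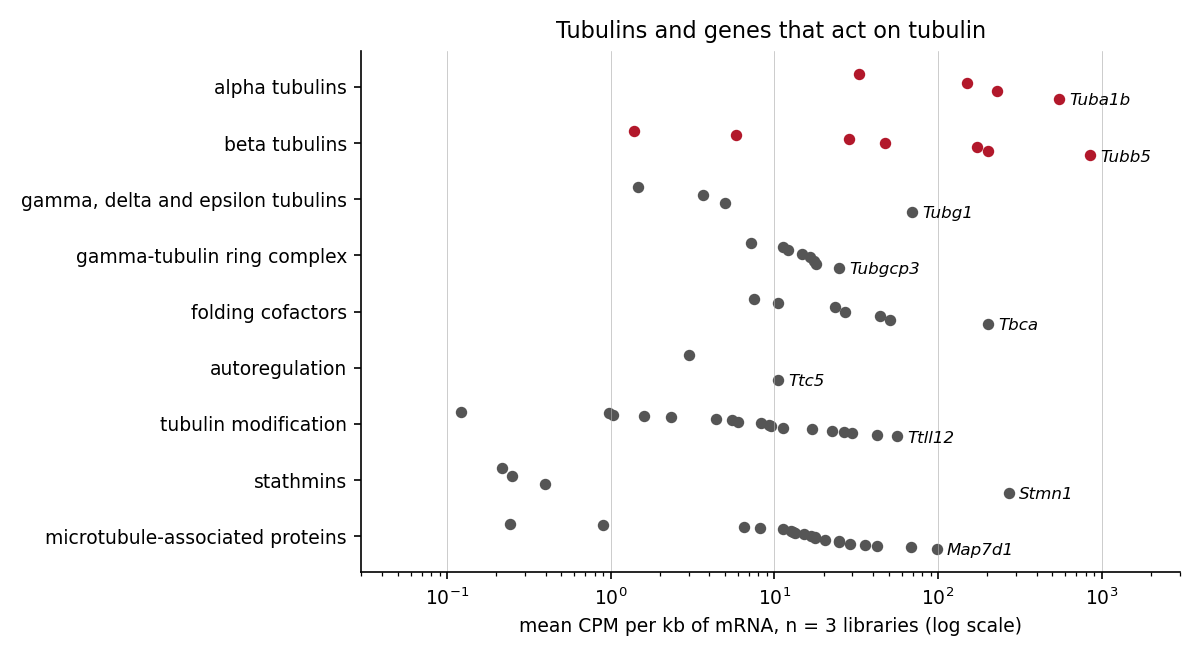
Mean CPM per kb of mRNA (log axis, 3 libraries) of each listed gene above 3 counts in every library, severing enzymes left out, with the highest gene of each list named. The alpha and beta tubulins (red) span 1.39 to 853 CPM per kb, and Stmn1 and Tbca are the highest of the genes that act on tubulin.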

How the data were processed

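RNA-Seq counts of 3 KO-actin libraries were used. The authors deposited these as whole-number counts for each Ensembl gene, not normalized. The submitters' processing notes name Trimmomatic, FastQC, HISAT2 and HTSeq and the builds mm10 and GRCm38. Versions, strand setting, annotation release and read length are not given in the sources used here. The paper's methods state DESeq2 with default settings for differential expression. With 1 condition no contrast between groups exists, so no such test was run.

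CPM used the library's total counts, between 44383636 and 49932446. Symbols were matched for 46005 of 46603 genes. Lengths, positions and sequences came from GENCODE M21 (GRCm38). Length was that of the representative coding mRNA. A floor of 3 counts was taken as what a count of 0 allows. Values are given as mean ± SD over 3 libraries. Neighbours in the order of levels were compared by exact sign-flip permutation tests. A chi-square of each gene's counts (2 degrees of freedom) against edgeR 4.0.16 TMM library sizes measured variation past counting error. It was adjusted by Benjamini-Hochberg over the 13814 genes that reached 10 counts in all libraries. A check on simulated counts had counting error as the only noise, so it does not show how the test behaves with other noise. DESeq2 1.42.0 size factors were an alternative. R 4.3.3, Python 3.11.15, numpy 2.4.6, pandas 2.3.3, scipy 1.17.1 and matplotlib 3.10.9 were used.

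The members and the lists were chosen with earlier results of these data known. The genes named are the members, the other alpha and beta tubulin genes, tubulin pseudogenes, and the highest, lowest and undetected genes of each list. Further list genes, such as Ttc5, Ttl, Vash2 and Mapt, were named after their values were seen. Some coding ends and 1 list gene are not reported here.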

Additional observations from a re-analysis of the deposited data

How the results depend on the processing

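Tubb3 stayed sixth among the beta tubulins under each scale and without each replicate. In plain CPM the share was 54.3% for Tuba1b, 74.4% for Tubb5 and 0.360% for Tubb3, and the beta to alpha ratio was 1.73. Per merged exons the ratio was 1.16 and Tubb3 held 0.563%. Per unshared 50-base windows Tuba1b held 70.1%, Tubb5 52.2% and Tubb3 0.361%, with a ratio of 0.351. Per unshared 100-base windows these were 65.9%, 58.8%, 0.410% and 0.462. With pseudogene counts added Tuba1b held 56.4% and the ratio was 1.28. Taking sequence that other genes overlap out of the length alone, with all counts kept, gave 55.3% for Tuba1b and 64.3% for Tubb5. This alternative was chosen after seeing the data, like all those of the ratio. Per unshared 50-base windows the ratio of Tubb4b to Tubb6 rose from 1.16 to 2.62 and that of Tubb5 to Tubb4b fell from 4.25 to 1.87; no pair of neighbours changed its order. Taking overlapped sequence out of the length raised Tuba4a from 3.45% to 6.50%, which holds only if reads from that sequence were not counted. Per unshared 50-base windows Tuba4a held 1.39%, and per unshared 100-base windows 1.97%. Leaving out 1 replicate at a time gave 5 to 8 varying members and 1748 to 4786 varying genes. The varying genes were 12.5% of those tested without replicate 2, 33.1% without replicate 1 and 34.0% without replicate 3. Fits on 2 libraries also have less power. TMM or DESeq2 scaling moved no mean CPM of a member by more than 0.152%. No paired analysis was possible because there was 1 group. The unknown counting of shared reads limits the alpha values more than depth does.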

Other observations

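The tubulin genes that lie side by side differed in level. Tuba1b and Tuba1a are separated by 15271 bases on chromosome 15 and differed 2.40-fold per kb of mRNA and 3.46-fold per unshared 50-base window. Tuba1a and Tuba1c, 76187 bases apart, differed 1.53-fold per kb and 2.44-fold per unshared window. Tubb2a and Tubb2b, 48740 bases apart on chromosome 13, differed 1.68-fold per kb and 2.04-fold per unshared window. Mc1r, which encodes the melanocortin receptor of pigment cells, ends at 123410744 on chromosome 8, just before Tubb3 on the same strand, and had 6, 2 and 0 counts.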
